A study of Mus musculus with 12 samples.

Results

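The comparison described here set mature osteoblast cultures of Day 28 against log phase cultures of Day 2, in 3 arrays of each day out of 12 arrays in all. MC3T3-E1 is an established line of mouse preosteoblasts from skull bone that lays down and mineralizes a matrix in culture. Both groups grew in serum-containing medium with ascorbic acid and a supplement written in the labels as 8-glycerol phosphate, possibly with a damaged symbol. So did the Day 5 and Day 10 cultures that contribute to the error estimate. Neither Day 2 nor Day 28 is therefore an untreated control. Day 2 carries the label of log phase growth and Day 28 that of mature osteoblast. The line is a single one, and the labels number the replicates 1 to 3 without saying whether they were separate cultures. The p-values then rest on the variation among these arrays alone, which may be technical.

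Each array paired Cy3-labelled cDNA of the cells with Cy5-labelled cDNA of a commercial mouse reference RNA, and each value was read as a log2 ratio of cells to reference. The log base is not given in the sources used here, so each fold in this text assumes base 2. Positive values were read as higher in the cells, a direction that is likely but not stated in the labels: over the 12 arrays, 16 mesenchymal genes averaged 1.72 (SD over genes 1.69, 13 above 0) and 19 genes of other lineages averaged -0.69 (SD over genes 1.72, 9 above 0). With the opposite direction, each rise in this text would be a fall and each fall a rise. The table held 17664 rows, of which 17504 were fitted after spots of 10 genes printed 17 times each had been averaged, and these rows named 12817 genes. Correlations of an array with the others of its day were 0.859 to 0.872 on Day 2 and 0.917 to 0.919 on Day 28, and were lowest for Day 10 replicate 3 at 0.795 and Day 5 replicate 2 at 0.838. These last 2 arrays enter the comparison only through the shared error estimate. Counts without 1 or both of them are given for the whole comparison, the 5 classes and several lists, while counts of families rest on all 12 arrays.

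An osteoblast begins as a dividing progenitor and leaves the cell cycle as it lays down a collagen-rich matrix. It then secretes the enzymes and mineral-binding proteins through which calcium phosphate is deposited, and it signals to bone-resorbing osteoclasts through secreted factors and receptors. Secreted proteins, receptors, transporters, enzymes and transcription factors therefore describe different sides of the same change: the matrix outside the cell, what the cell can sense, what it moves across its membranes, its chemistry and its gene control.

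The promoters of 5 genes that passed the test are shown because each holds letters of a motif known from the control of that kind of gene, and they were chosen with the values known. Each window holds the 250 bases before the first listed start of the gene in the RefSeq table of build GRCm38.p6, printed 5′ to 3′ on the gene's strand, with matches on either strand to the motifs named for that gene in capitals. For Mmp13, a collagenase, the capitals mark a Runx match (TGTGGT) 118 bases and an AP-1 match (TGANTCA) 35 bases before the start, at chr9:7272264-7272513 on the + strand. For Cks1b, a cyclin-dependent kinase subunit, they mark the CHR letters (TTTGAA) found in promoters of mitotic genes, at 77 and 17 bases, and 4 CCAAT matches at 217, 177, 89 and 41 bases, at chr3:89418292-89418541 on the - strand. For Asns, Chac1 and Slc7a11, all known as targets of the stress-response factor ATF4, they mark a match to its C/EBP-ATF letters (TGATGNAA). It lies 23 bases before the start for Asns (chr6:7693210-7693459, - strand), 193 for Chac1 (chr2:119350992-119351241, + strand), and 66 and 47 for Slc7a11 (chr3:50443614-50443863, - strand). The marked matches do not overlap each other. Matches to other motifs are left in lower case, among them CCAAT, with 3 matches in the Chac1 window and 1 in that of Slc7a11.
Mmp13: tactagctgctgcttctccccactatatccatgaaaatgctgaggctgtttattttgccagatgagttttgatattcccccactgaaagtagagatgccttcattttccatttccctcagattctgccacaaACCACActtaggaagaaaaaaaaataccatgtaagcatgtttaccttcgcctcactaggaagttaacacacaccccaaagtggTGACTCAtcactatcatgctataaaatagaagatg
Cks1b: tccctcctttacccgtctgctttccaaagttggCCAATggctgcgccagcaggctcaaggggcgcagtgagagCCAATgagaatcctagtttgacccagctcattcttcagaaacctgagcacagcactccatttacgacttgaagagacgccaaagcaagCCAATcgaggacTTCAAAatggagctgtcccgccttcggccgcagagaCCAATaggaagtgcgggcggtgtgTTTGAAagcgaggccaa
Asns: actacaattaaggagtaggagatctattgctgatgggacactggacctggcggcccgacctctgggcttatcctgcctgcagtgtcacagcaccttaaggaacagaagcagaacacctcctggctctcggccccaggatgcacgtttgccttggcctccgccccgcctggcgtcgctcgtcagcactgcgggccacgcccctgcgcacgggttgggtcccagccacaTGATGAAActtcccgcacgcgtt
Chac1: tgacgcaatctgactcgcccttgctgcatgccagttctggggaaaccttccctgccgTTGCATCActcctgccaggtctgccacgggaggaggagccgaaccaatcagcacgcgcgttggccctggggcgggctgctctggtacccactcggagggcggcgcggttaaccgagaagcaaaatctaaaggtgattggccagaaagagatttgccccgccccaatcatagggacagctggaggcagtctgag
Slc7a11: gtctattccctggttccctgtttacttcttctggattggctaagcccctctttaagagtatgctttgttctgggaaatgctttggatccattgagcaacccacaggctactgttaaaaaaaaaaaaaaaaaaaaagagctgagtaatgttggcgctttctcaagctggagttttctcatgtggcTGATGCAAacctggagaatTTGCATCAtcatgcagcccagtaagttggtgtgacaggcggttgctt

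The same letters, and the GC letters (GGGCGG) and TATA letters (TATAAA), were counted over the whole comparison without a test. Windows were found for 10220 genes of the array, among them 443 genes that rose and 233 that fell. The AP-1 letters stood in 5.4% of the windows of genes that rose, 3.9% of those that fell, 5.8% of all array genes and 6.9% of all 27025 promoters in the table. The Runx letters stood in 9.7% of windows of genes that rose, 11.6% of those that fell, 11.5% of array genes and 14.2% of all promoters. For the C/EBP-ATF letters these shares were 2.0%, 3.4%, 2.4% and 3.5%, for CHR 10.6%, 10.7%, 11.8% and 16.3%, and for CCAAT 33.9%, 37.3%, 35.8% and 34.5%. For TATA they were 9.5%, 10.7%, 9.5% and 13.0%. The GC letters differed most, in 56.4% of windows of genes that rose and 63.9% of those that fell, beside 50.5% of array genes and 32.9% of all promoters. The median share of G and C in the windows was 58.8% for genes that rose, 59.2% for those that fell and 58.0% for array genes. A match is a run of letters and was not tested as a binding site.

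Between Day 2 and Day 28, 996 of 17504 rows (5.69%) passed an adjusted p of 0.05, with 644 rows (3.68%) higher and 352 (2.01%) lower on Day 28. Counted once per gene, 873 of 12817 genes (6.81%) passed, of which 580 (4.53%) were higher on Day 28 and 293 (2.29%) lower. The test was a linear model of limma with a mean for each of the 4 days and Benjamini-Hochberg adjustment across the 17504 rows. At an unadjusted p under 0.05, 3196 rows (18.3%) and 2584 genes (20.2%) passed. Without Day 5 replicate 2 and Day 10 replicate 3, 1704 rows passed, 960 higher and 744 lower. Without Day 10 replicate 3 alone, 1431 rows passed, 842 higher and 589 lower, or 747 genes higher (5.83%) and 490 lower (3.82%).

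The median log2 difference of the 580 higher genes was 0.98, with 283 genes at 1 or above, 80 at 2 or above and 27 at 3 or above. The median of the 293 lower genes was -0.75, with 59 genes that fell by at least 1, 8 by at least 2 and 1 by at least 3. All 293 lower genes and 578 of the 580 higher genes had no overlap between the 3 arrays of Day 2 and the 3 of Day 28. Lack of overlap alone was common, at 5003 rows (28.6%) or 3942 genes (30.8%), split into 1958 genes higher (15.3%) and 1984 lower (15.5%), and over rows into 14.2% higher and 14.4% lower. On Day 28 the cells exceeded the reference for 506 of the 580 higher genes, against 299 on Day 2. For the 293 lower genes the cells exceeded the reference for 167 on Day 2 and 47 on Day 28.

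**Figure D1:**
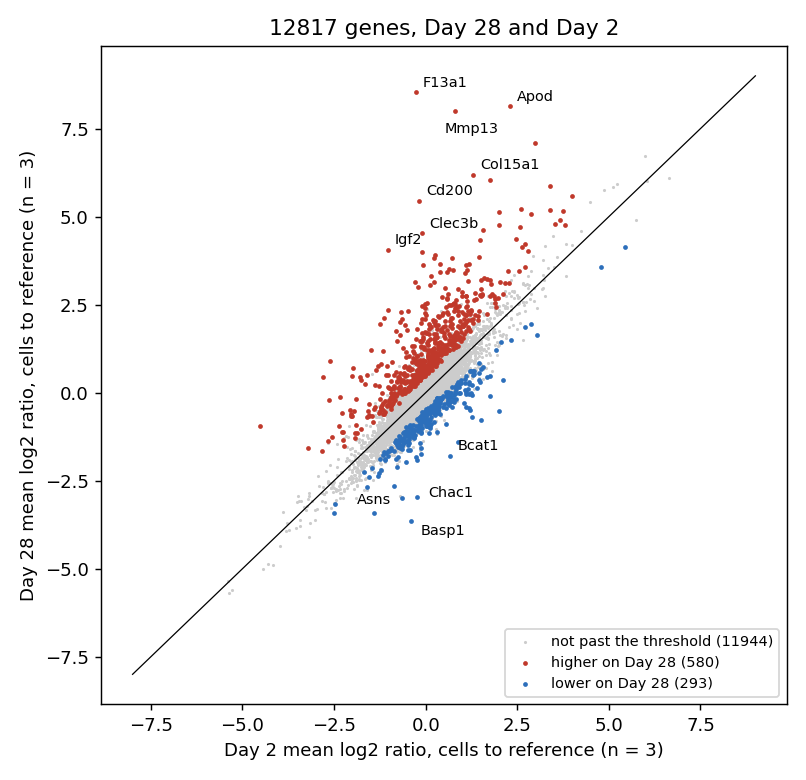
Mean log2 ratio of cells to reference on Day 28 (vertical axis) against Day 2 (horizontal axis), 1 point per gene, with the line of equal values. The 580 genes higher on Day 28 reach farther from the line than the 293 lower genes, led by F13a1 at 8.54 on Day 28 and -0.27 on Day 2.

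The functional classes are described by counts, without a test of one class against another. Of 776 secreted proteins measured, 92 (11.9%) rose and 15 (1.93%) fell. Receptors gave 38 of 561 higher (6.77%) and 7 lower (1.25%), and transporters and channels 36 of 600 higher (6%) and 13 lower (2.17%). Enzymes gave 113 of 2120 higher (5.33%) and 65 lower (3.07%). Transcription factors gave 24 of 775 higher (3.1%) and 20 lower (2.58%). The share over all genes was 4.53% higher and 2.29% lower. Without Day 5 replicate 2 and Day 10 replicate 3, when 1704 rather than 996 of 17504 rows passed, all classes had more calls. Called secreted proteins went from 107 to 141, receptors from 45 to 64 and transporters from 49 to 71. Enzymes went from 178 to 309 and transcription factors from 44 to 78. The median log2 difference over all measured members, called or not, was 0.02 for secreted proteins, 0.01 for receptors, -0.02 for transporters, -0.04 for enzymes and -0.03 for transcription factors, beside -0.02 over all genes. Every class median thus lay near 0. Classes came from symbol patterns and left 7985 genes without one, of which 277 rose and 173 fell.

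**Figure D2:**
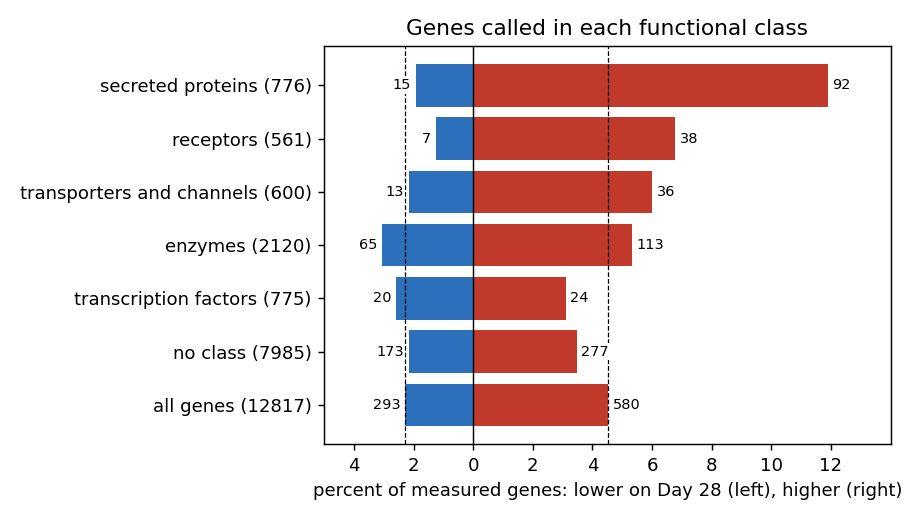
Percent of the measured genes of each class (number in brackets) that were higher (right, red) or lower (left, blue) on Day 28, with the count of genes at each bar and dashed lines at the share over all genes. Secreted proteins had the highest share above, 11.9% against 4.53% over all genes, and transcription factors had 3.1% above and 2.58% below.

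Among secreted proteins, the largest rise was that of Mmp13, a collagenase that cuts fibrillar collagens and is expressed by maturing osteoblasts and growth plate chondrocytes. Its log2 ratios were 1.22, 0.41 and 0.80 on Day 2 and 8.00, 8.09 and 7.89 on Day 28. The arrays of the days lay far apart, at a 145-fold difference (log2 difference 7.18, SE 0.34, adjusted p = 9.34e-08). Apod, a lipocalin that carries small lipids, had 1.91, 2.28 and 2.73 on Day 2 and 8.02, 8.14 and 8.27 on Day 28, a 57.2-fold rise (log2 difference 5.84, SE 0.23, adjusted p = 2.26e-08). It was already above the reference on every Day 2 array, whereas Igf2, an insulin-like growth factor of growing tissues, crossed it: -1.01, -0.99 and -1.11 on Day 2 and 4.16, 4.06 and 3.97 on Day 28. Igf2 rose 34.3-fold (log2 difference 5.10, SE 0.36, adjusted p = 2.39e-06), and no array of one day came near the other day.

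Of 38 collagen genes, 8 (21.1%) rose and none fell, beside 4.53% and 2.29% over all genes. The median log2 difference over all 38 was 0.19. Col15a1, a collagen of basement membrane zones, led with 1.01, 1.44 and 1.40 on Day 2 and 5.47, 6.79 and 6.31 on Day 28 (log2 difference 4.90, SE 0.47, adjusted p = 3.13e-05). The others were Col18a1 (2.69), its relative and the source of endostatin, Col24a1 (2.44), Col11a1 (1.79) and Col5a3 (1.79), which are fibrillar, the basement membrane chains Col4a2 (1.64) and Col4a1 (1.13), and Col16a1 (0.89), a fibril-associated collagen. Col11a1 and Col16a1 lost their calls under quantile normalization. The chains of type I collagen did not pass the test: Col1a1 had a log2 difference of 0.17 (adjusted p = 0.786 in limma) and Col1a2 of 0.57 (adjusted p = 0.207), the latter past the threshold without Day 10 replicate 3 (adjusted p = 0.0398). Both were already high on Day 2, with means of 2.52 ± 0.19 and 2.89 ± 0.32 (SD, n = 3). The called members of this family and of the others given in full were named after their values were seen.

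Of 20 proteoglycans, 3 (15%) rose and 1 (5%) fell, beside 4.53% and 2.29% over all genes. Lum, the collagen-fibril organizer lumican, had 1.71, 3.70 and 3.51 on Day 2 and 6.43, 7.23 and 7.61 on Day 28 (log2 difference 4.12, SE 0.72, adjusted p = 0.00389); the lowest Day 2 array was replicate 1. Fmod, the related fibromodulin, rose by 2.77 and Srgn, serglycin of secretory granules, by 1.72. Vcan, the large hyaluronan-binding versican, fell by 1.42 (adjusted p = 0.0113), but its other probe had a log2 difference of -0.09 and was not past the threshold. Among 113 further matrix proteins, 23 (20.4%) rose and 3 (2.65%) fell, the falls near the 2.29% over all genes. The median over all 113 was 0.10. Fbln7, a fibulin, went from -1.52, -0.78 and -1.10 to 2.09, 2.40 and 1.90, from below the reference on every Day 2 array to above it on every Day 28 array (log2 difference 3.26, SE 0.23, adjusted p = 2.91e-06). The falls were Ccn3 (-1.30), a cysteine-rich matricellular protein that stayed above the reference at 4.15 ± 0.07 (SD, n = 3) on Day 28, Tinagl1 (-1.41), a matricellular protein, and Fbln5 (-0.60), a fibulin of elastic fibres.

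Of 37 proteins that bind BMPs, Wnts or other growth factors, 11 (29.7%) rose and 1 (2.7%) fell, beside 4.53% and 2.29% over all genes. The median over all 37 was 0.26. The insulin-like growth factor carriers Igfbp5 (2.84), Igfbp4 (2.34) and Igfbp6 (0.89) rose, as did Htra1 (2.58), a serine protease. The BMP antagonists among them were Nbl1 (2.07), Chrdl1 (1.40), Grem1 (0.92) and Twsg1 (0.74), the last a BMP modulator. Sfrp2 (1.27) and Dkk2 (0.98) act on Wnt signals, and Scube2 (1.71) on the release of hedgehog. Crim1, which binds BMPs at the cell surface, fell by 0.64. Sfrp2 is the member whose direction was unstable: under quantile normalization its log2 difference was -0.09 (adjusted p = 0.882 in limma). The other probes of Scube2 (0.50) and Chrdl1 (0.44) were not past the threshold, and that of Twsg1 (0.86) rose.

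Of 130 growth factors, 12 (9.23%) rose and 3 (2.31%) fell. Chemokines and cytokines, with Apod among them, gave 12 rises (11.1%) and 1 fall (0.926%) of 108, and plasma proteins 9 rises (9.47%) and no fall of 95. Over all genes 4.53% rose and 2.29% fell, so rises outnumbered falls there too. Il33, an alarmin of the interleukin family, had -2.87, -2.64 and -2.30 on Day 2 and 0.90, 0.97 and 0.80 on Day 28, below and above the reference respectively (log2 difference 3.49, SE 0.29, adjusted p = 8.61e-06). The chemokines Ccl8 (3.20), Ccl7 (2.05), Pf4 (1.65), Cx3cl1 (1.36), Ccl5 (0.80) and Ccl2 (0.72) rose, and so did Il34 (1.18), a ligand of the macrophage growth factor receptor. Mif (1.71), Nampt (0.79) and Flt3l (0.77) rose as well, and Cxcl12, which retains blood progenitors in marrow, fell by 0.64. Clec3b, the plasminogen-binding tetranectin, had 0.17, -0.32 and -0.17 on Day 2 and 4.07, 4.96 and 4.55 on Day 28 (log2 difference 4.64, SE 0.40, adjusted p = 1.24e-05), without overlap. Gas6, the ligand of the Axl family of receptors, rose by 2.20 (adjusted p = 3.82e-06), though under quantile normalization the difference was 1.09 and the call was lost (adjusted p = 0.112). The growth factor Ptn, pleiotrophin, fell by 1.20 (adjusted p = 0.0482) and kept its call in 3 of 12 fits that each left out an array, with adjusted p = 0.141 without Day 28 replicate 3.

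Secreted proteases and their inhibitors gave 13 rises (7.26%) and 6 falls (3.35%) of 179, beside 4.53% and 2.29% over all genes. The symbol patterns also placed other secreted enzymes, such as Lox and Lpl, in this family. The falls were led by Pcolce2, which enhances the cutting of procollagen, with -0.11, 1.55 and 1.23 on Day 2 and -0.72, -1.22 and -2.22 on Day 28 (log2 difference -2.28, SE 0.43, adjusted p = 0.00598). Its arrays were spread within both days but did not overlap. Slpi, a leukocyte protease inhibitor, went from 1.67, 1.04 and 1.11 to -0.50, -0.83 and -0.73, above the reference on Day 2 and below it on Day 28 (log2 difference -1.96, SE 0.32, adjusted p = 0.00205). Serpinb1a, an inhibitor of neutrophil proteases, went from 1.19, 0.84 and 1.59 to -0.60, -0.47 and -0.38 (log2 difference -1.69, SE 0.19, adjusted p = 1.23e-04), and it crossed the reference in the same way. Pla2g7, a phospholipase that inactivates platelet-activating factor, fell by 1.31 (adjusted p = 0.00271). Of the secreted proteins named here, Ptn, Tinagl1, Vcan, Ccl2, Ccl5, Cxcl12, Flt3l, Nampt, Mif, Crim1, Grem1, Igfbp4 and Twsg1 lost their call without at least 1 array, with highest adjusted p from 0.0507 (Twsg1, without Day 28 replicate 2) to 0.165 (Ccl2, without Day 2 replicate 3).

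**Figure D3:**
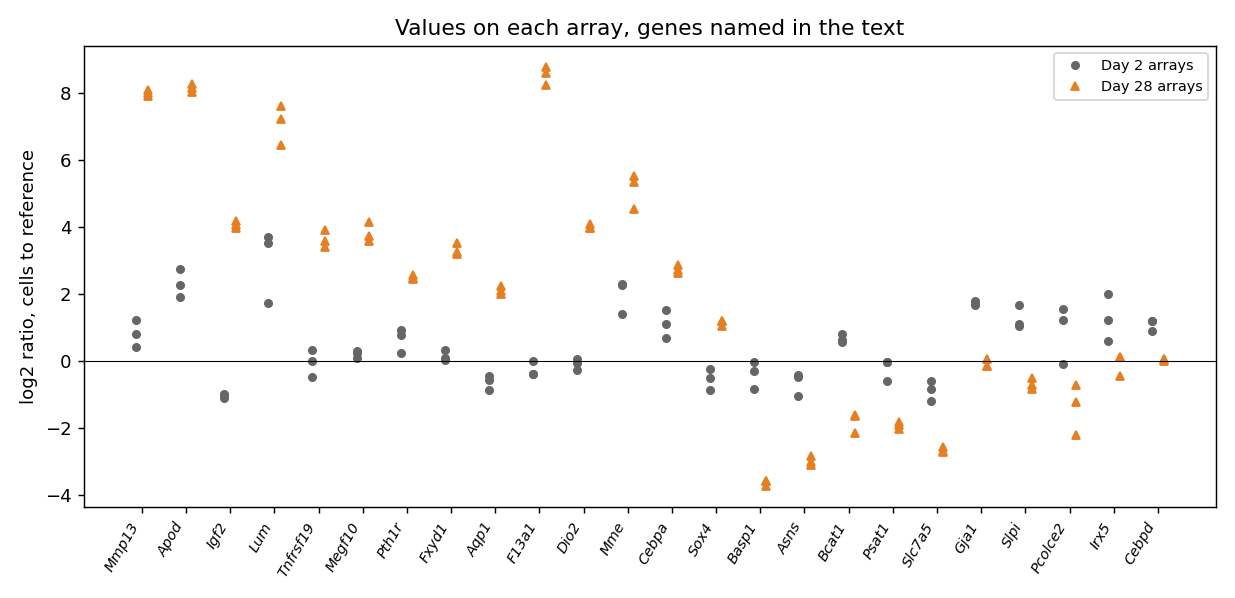
Log2 ratio of cells to reference (vertical axis) on each of the 3 Day 2 arrays (grey circles) and the 3 Day 28 arrays (orange triangles) for 24 genes named in the text, with a line at equality with the reference. In all 24 the arrays of the 2 days did not overlap, which follows largely from picking them among the called genes. Over all genes 30.8% had no overlap. Pcolce2 was spread within both days, from -0.11 to 1.55 on Day 2, and Lum was spread more widely than Pcolce2 on Day 2.

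Of the 38 receptors that rose, 7 of 78 (8.97%) were of the tumour necrosis factor and pattern recognition family, 6 of 49 (12.2%) of the tyrosine kinases, 8 of 57 (14%) of the guidance, Notch and lipoprotein receptors and 6 of 35 (17.1%) of the matrix receptors, beside 4.53% over all genes. Tnfrsf19, a member of the tumour necrosis factor receptor family, had 0.31, -0.01 and -0.48 on Day 2 and 3.41, 3.91 and 3.57 on Day 28 (log2 difference 3.69, SE 0.28, adjusted p = 3.99e-06). Megf10, an engulfment receptor with epidermal growth factor repeats, had 0.30, 0.24 and 0.10 and 3.57, 3.73 and 4.14 (log2 difference 3.60, SE 0.32, adjusted p = 1.46e-05). Both were near the reference on Day 2 and well above it on every Day 28 array. Tnfrsf11b, the soluble decoy receptor osteoprotegerin that restrains osteoclast formation, had 2.12, 2.01 and 2.38 on Day 2 and 3.05, 3.00 and 3.26 on Day 28 (log2 difference 0.94, SE 0.18, adjusted p = 0.00662). The call of Tnfrsf11b was lost under quantile normalization, where the difference was 0.29 (adjusted p = 0.499).

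G protein-coupled receptors gave 9 rises (4.04%) and 1 fall (0.448%) of 223, the rises near the 4.53% over all genes. Pth1r, the parathyroid hormone receptor of osteoblasts, had 0.24, 0.92 and 0.78 on Day 2 and 2.47, 2.57 and 2.44 on Day 28 (log2 difference 1.84, SE 0.38, adjusted p = 0.0103). Its Day 28 arrays agreed closely and lay above each Day 2 array. Ackr4, a scavenging chemokine receptor, rose by 2.89 and Mrgprf, an orphan receptor, by 2.52, with adjusted p = 3.00e-04 and 0.00152 in limma. Ptgfr, the prostaglandin F receptor, rose by 2.13 (adjusted p = 0.025), a call lost under quantile normalization (0.272) and without Day 2 replicate 1 (0.0954). Glp1r, the receptor of an incretin hormone, lay below the reference on both days and fell by 0.69 (adjusted p = 0.0257). Gfra2, a co-receptor of neurturin, rose by 1.86 (adjusted p = 0.0372) and kept its call in 5 of 12 fits that left out an array.

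Of 49 receptor tyrosine kinases and their relatives, 6 (12.2%) rose and 1 (2.04%) fell, beside 4.53% and 2.29% over all genes. The fibroblast growth factor receptors Fgfr3 (1.66) and Fgfr1 (0.87) rose, with Flt1 (1.11), a receptor of vascular endothelial growth factor, Pdgfra (1.01), Mertk (0.88), a receptor of Gas6, and the receptor-like Pdgfrl (0.80). Igf1r, the receptor for insulin-like growth factors, fell: its values were -0.13, -0.16 and -0.13 on Day 2 and -1.14, -1.04 and -0.87 on Day 28 (log2 difference -0.88, SE 0.17, adjusted p = 0.00624). Its second probe fell by 0.90. The ligand Igf2 rose over the same days, as given above, and so did Igf1 (1.51, adjusted p = 0.0407), the latter with a call that was lost under quantile normalization.

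Matrix and cell adhesion receptors gave 6 rises (17.1%) and 2 falls (5.71%) of 35, beside 4.53% and 2.29% over all genes. The heparan sulfate carriers Sdc2 (1.81), Sdc3 (1.18), Sdc4 (0.55) and Gpc4 (0.70) rose, with the integrin chains Itga8 (1.79) and Itgb5 (0.81). The second probe of Sdc2 gave 0.43 and was not past the threshold. Cd44, the hyaluronan receptor, fell from 1.29, 1.00 and 0.93 to 0.13, 0.21 and 0.51 (log2 difference -0.79, SE 0.15, adjusted p = 0.00793). Itga6, a laminin-binding integrin chain, fell by 0.69. The other receptors that fell were Osmr, the oncostatin M receptor (-0.97), Procr, the endothelial protein C receptor (-0.79), and Olfr155, an olfactory receptor gene (-1.52). Gfra2, Glp1r, Itga6, Osmr, Procr, Ptgfr, Fgfr1, Gpc4, Itgb5, Mertk, Pdgfrl, Sdc3 and Sdc4 each lost the call without at least 1 array, with highest adjusted p between 0.0502 (Mertk, without Day 28 replicate 3) and 0.176 (Procr, without Day 28 replicate 2).

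Of the 36 transporters and channels that rose, Fxyd1 rose most. Fxyd1, a small regulator of the sodium pump, had 0.32, 0.07 and 0.03 on Day 2 and 3.19, 3.51 and 3.24 on Day 28 (log2 difference 3.17, SE 0.17, adjusted p = 2.71e-07). Atp1b1, the pump's beta chain, had -1.61, -1.88 and -1.81 and 0.20, 0.60 and 0.32 (log2 difference 2.14, SE 0.34, adjusted p = 0.00175). Aqp1, a water channel, had -0.88, -0.46 and -0.58 and 2.09, 2.24 and 1.98 (log2 difference 2.74, SE 0.31, adjusted p = 1.13e-04). In all of these every Day 28 array exceeded every Day 2 array, and Atp1b1 and Aqp1 passed from below to above the reference. Rises of single ion channels were Kcne4 (2.37), an accessory chain of potassium channels, Hvcn1 (2.28), a voltage-gated proton channel, P2rx5 (1.76), an ATP-gated channel, and Cacna1g (1.54), a T-type calcium channel. Slc25a35, a mitochondrial carrier, rose by 2.43 (adjusted p = 4.89e-05) and had the largest rise of the 16 solute carriers that rose, out of 267 (5.99%, beside 4.53% over all genes).

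The falls among transporters were led by Gja1, the gap junction protein connexin that couples osteoblasts. Gja1 had 1.76, 1.68 and 1.80 on Day 2 and 0.04, -0.16 and -0.14 on Day 28, a drop to the level of the reference (log2 difference -1.83, SE 0.23, adjusted p = 2.35e-04). Slc7a5, the large neutral amino acid transporter, had -1.18, -0.83 and -0.61 and -2.71, -2.69 and -2.57 (log2 difference -1.79, SE 0.47, adjusted p = 0.0413). Slc7a5 lay below the reference on all 6 arrays and its Day 10 arrays were spread from -2.12 to 0.14, and without Day 2 replicate 3 its adjusted p was 0.144. Slc26a2, a sulfate transporter needed for cartilage and bone proteoglycans, went from 2.91, 2.82 and 2.89 to 2.01, 1.94 and 1.95 and stayed above the reference (log2 difference -0.91, SE 0.14, adjusted p = 0.00135). Trpv4, a calcium channel that responds to osmotic and mechanical stimuli, fell by 1.29 (adjusted p = 0.00408). Slc12a2, a sodium, potassium and chloride carrier (-0.70), Gabre, a GABA receptor chain (-0.79), and Mfsd10 (-0.64) fell by less than 1. Slc7a11, the cystine and glutamate exchanger, fell by 0.84 (adjusted p = 0.0448), with Day 2 replicate 1 at 0.99 and the other Day 2 arrays at 0.02 and 0.03. Its call was lost under quantile normalization, with the 6 arrays alone, and without Day 28 replicate 2 (adjusted p = 0.134). Gabre, Mfsd10 and Slc12a2 also lost theirs without at least 1 array, with highest adjusted p from 0.098 (Slc12a2, without Day 28 replicate 1) to 0.134 (Gabre, without Day 2 replicate 3).

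The largest rise of the comparison belonged to an enzyme, F13a1, the catalytic chain of factor XIII, a transglutaminase that cross-links fibrin and matrix proteins. F13a1 had -0.41, -0.02 and -0.39 on Day 2 and 8.24, 8.77 and 8.60 on Day 28, a 448-fold difference (log2 difference 8.81, SE 0.41, adjusted p = 9.22e-08). Dio2, the deiodinase that activates thyroid hormone, had -0.27, -0.07 and 0.06 and 3.97, 4.08 and 3.95 (log2 difference 4.10, SE 0.39, adjusted p = 3.05e-05). Both were at the reference level on Day 2 and far above it on each Day 28 array. Hsd11b1, which regenerates active glucocorticoid, had -0.61, -0.39 and -0.41 on Day 2 and 2.24, 2.14 and 2.58 on Day 28 (log2 difference 2.79, SE 0.15, adjusted p = 2.85e-07). Adh1, an alcohol dehydrogenase that also oxidizes retinol, rose by 2.75 (adjusted p = 1.68e-04). Nt5e, which makes adenosine outside the cell, went from -0.90, -0.84 and -0.66 to 1.83, 1.72 and 1.73 (log2 difference 2.56, SE 0.17, adjusted p = 1.38e-06), and its second probe rose by 1.30. Gbp8, an interferon-inducible GTPase, rose by 3.45 (adjusted p = 5.24e-05).

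Of 139 intracellular and membrane proteases, 12 (8.63%) rose and 1 (0.719%) fell, beside 4.53% and 2.29% over all genes. Mme, the membrane endopeptidase neprilysin, had 1.41, 2.29 and 2.28 on Day 2 and 4.53, 5.53 and 5.32 on Day 28 (log2 difference 3.14, SE 0.56, adjusted p = 0.004). The cathepsins, which are lysosomal and were not counted as a set, were represented by Ctsk (2.63), Ctsh (1.56), Ctsl (1.18), Ctsd (1.17) and Ctsa (0.97). The others that rose were Capn6 (1.86), Dpp7 (1.38), Cpq (1.33), Enpep (1.22), Furin (0.70), a convertase of proproteins, and Psmb9 (0.62), a chain of the immunoproteasome. Psmb2, a proteasome chain, fell by 0.54. Enpep changed sign under quantile normalization, at -0.16 (adjusted p = 0.725), and the second probe of Cpq gave -0.15. Capn6, Ctsa, Enpep, Furin, Psmb2 and Psmb9 lost their call without at least 1 array, with highest adjusted p from 0.0605 (Ctsa, without Day 28 replicate 3) to 0.165 (Psmb9, without Day 2 replicate 3).

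Of the 65 enzymes that fell, Bcat1 and Asns fell most. Bcat1, which transaminates branched-chain amino acids, had 0.57, 0.63 and 0.80 on Day 2 and -2.14, -1.63 and -1.61 on Day 28 (log2 difference -2.46, SE 0.21, adjusted p = 9.29e-06). Asns, which makes asparagine, had -1.05, -0.41 and -0.47 and -2.85, -3.12 and -3.02 (log2 difference -2.35, SE 0.44, adjusted p = 0.00539). Psat1, of serine synthesis, had -0.61, -0.04 and -0.02 and -1.82, -1.92 and -2.04 (log2 difference -1.70, SE 0.16, adjusted p = 2.40e-05). Bcat1 passed from above to below the reference, while Asns and Psat1 were below it on both days. Iars, which charges the transfer RNA of isoleucine, fell by 1.60 (adjusted p = 0.00421). The other falls among the 8 largest of the class were Chst1 (-2.00), a sulfotransferase of keratan sulfate, Steap1 (-1.46), a metalloreductase relative, Cyp1b1 (-1.44), a cytochrome P450 of steroid and xenobiotic metabolism, and Cemip (-1.40), which degrades hyaluronan. The other probe of Cemip gave -0.56 and was not past the threshold.

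Of the transcription factors past the threshold, 10 of 24 rises and 4 of 20 falls reached a log2 difference of 1. Cebpa, a C/EBP factor best known from fat and myeloid cells, had 0.68, 1.50 and 1.10 on Day 2 and 2.72, 2.86 and 2.63 on Day 28 (log2 difference 1.64, SE 0.19, adjusted p = 1.05e-04). Its relative Cebpd went the other way, from 1.19, 0.90 and 1.18 to 0.05, -0.01 and 0.06 (log2 difference -1.05, SE 0.15, adjusted p = 6.22e-04). In both genes the days did not overlap. Sox4, an HMG-box factor, had -0.25, -0.86 and -0.50 on Day 2 and 1.18, 1.20 and 1.05 on Day 28 (log2 difference 1.68, SE 0.16, adjusted p = 3.28e-05), and passed from below to above the reference. Sox11, of the same subfamily, fell by 1.12 (adjusted p = 0.00246), and its other probes gave -1.51, which fell, and -0.27, which was not past the threshold.

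The other factors that rose most were Zbtb7c (1.78), a zinc finger repressor, Ehf (1.77), an Ets factor known from epithelia, Bhlhe41 (1.44), a clock-linked repressor, Fosl2 (1.35), an AP-1 subunit, Zfp423 (1.32) and Zfp503 (1.22). Fosl2 remained below the reference, at -2.38, -2.02 and -1.67 on Day 2 and -0.64, -0.60 and -0.77 on Day 28 (log2 difference 1.35, SE 0.23, adjusted p = 0.00332). Homeobox genes gave 1 rise (0.741%) and 4 falls (2.96%) of 135, beside 4.53% and 2.29% over all genes. Among them Irx5 went from 0.60, 2.00 and 1.22 to 0.11, 0.12 and -0.45 (log2 difference -1.35, SE 0.30, adjusted p = 0.017), with no overlap despite a wide spread on Day 2. Dlx1 (-1.02) and Dlx2 (-0.88), distal-less factors of craniofacial development, fell as well. Foxp1, a forkhead repressor (-0.91), Rbpj, the DNA-binding partner of Notch (-0.85), and Id1, a BMP-induced inhibitor of helix-loop-helix factors (-0.93), also fell. Bhlhe41, Dlx1, Dlx2, Id1 and Irx5 lost their call without at least 1 array, with highest adjusted p from 0.0607 (Dlx2, without Day 28 replicate 2) to 0.159 (Id1, without Day 28 replicate 2).

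Several of the largest changes were in genes that the symbol patterns placed in no class. Cd200, a membrane ligand of an inhibitory receptor on myeloid cells, had -0.21, -0.19 and -0.14 on Day 2 and 5.15, 5.58 and 5.63 on Day 28, a 49.5-fold rise (log2 difference 5.63, SE 0.32, adjusted p = 4.14e-07). Ecrg4, which encodes a secreted peptide precursor, rose by 4.26 (adjusted p = 2.42e-05), and Itgbl1, an integrin beta-like protein, by 3.66, with Day 28 arrays as far apart as 2.22 and 5.17. Gpnmb, a transmembrane glycoprotein also called osteoactivin, had -4.50, -4.65 and -4.44 on Day 2 and -0.94, -0.76 and -1.10 on Day 28, still below the reference (log2 difference 3.60, SE 0.57, adjusted p = 0.00184). Basp1, a membrane-attached signalling protein, had the largest fall, from -0.83, -0.31 and -0.02 to -3.58, -3.75 and -3.58 (log2 difference -3.25, SE 0.22, adjusted p = 1.77e-06). Its Day 28 arrays lay close together. Chac1, which degrades glutathione, fell by 2.72 (adjusted p = 0.0185), Vstm5, an immunoglobulin-domain membrane protein, by 2.52, Crybg1 by 2.29, Cldn1, a tight junction protein, by 1.74 and Arxes2 by 1.63. Chac1 and Cldn1 lost their call without Day 2 replicate 3 (adjusted p = 0.0787 and 0.0718).

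Genes of mineralization and the osteoblast state were tested as members of a list of 30, of which 21 were measured. Of these 5 (23.8%) rose and none fell, with a median log2 difference of 0.17, beside 4.53% rising over all genes. Without Day 10 replicate 3, 9 rose and 1 fell, beside 5.83% and 3.82% over all genes. The further ones were Alpl, Ibsp, Col1a2, Ank and, lower, Msx2. Dmp1, an acidic protein of mineralizing matrix and osteocytes, had -0.17, 0.08 and 0.05 on Day 2 and 2.51, 1.98 and 3.02 on Day 28 (log2 difference 2.52, SE 0.28, adjusted p = 9.64e-05). Omd, osteomodulin of bone matrix, had 3.75, 3.20 and 3.21 and 5.62, 5.93 and 6.06 (log2 difference 2.48, SE 0.26, adjusted p = 6.19e-05). Dmp1 began at the reference level and Omd well above it. Sparc, the collagen- and mineral-binding osteonectin, rose by 1.30 (adjusted p = 0.00646), a call lost under quantile normalization, where the difference was 0.74 (adjusted p = 0.0798). Pth1r and Tnfrsf11b, given above, were the others.

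Alpl, the alkaline phosphatase that frees phosphate for mineral, did not pass, although its arrays did not overlap: 0.26, 0.28 and 0.46 on Day 2 and 1.46, 1.87 and 1.83 on Day 28 (log2 difference 1.39, SE 0.43, adjusted p = 0.0854). Ibsp, bone sialoprotein, had 0.43, 1.85 and 0.60 and 2.31, 2.68 and 2.57 (log2 difference 1.56, SE 0.70, adjusted p = 0.255), again without overlap. In both genes Day 10 replicate 3, which enters only the error estimate, lay far below the other Day 10 arrays: 2.11, 1.68 and 0.15 for Alpl and 4.37, 3.74 and 0.74 for Ibsp. Without that array both passed, with adjusted p = 0.0105 for Alpl and 0.0163 for Ibsp in limma. Sp7, the osteoblast factor osterix, had 0.94, 2.39 and 2.33 and 1.75, 2.90 and 3.40 (adjusted p = 0.376), and its days overlapped. Msx2, a homeobox factor of osteoblast progenitors, had a log2 difference of -0.88 (adjusted p = 0.0564), and passed without Day 10 replicate 3 (0.0488) or Day 5 replicate 2 (0.00683). Phex (0.08), Mepe (0.13), Sost (0.06), Smpd3 (0.17) and Slc20a2 (0.13), also of the list, were not past the threshold. The differences of Fgf23 (-0.27), Dlx5 (-0.20), Slc20a1 (-0.20) and Tnfsf11 (-0.13) were negative and did not pass either. No value is given here for Runx2, Bglap and Spp1.

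**Figure D4:**
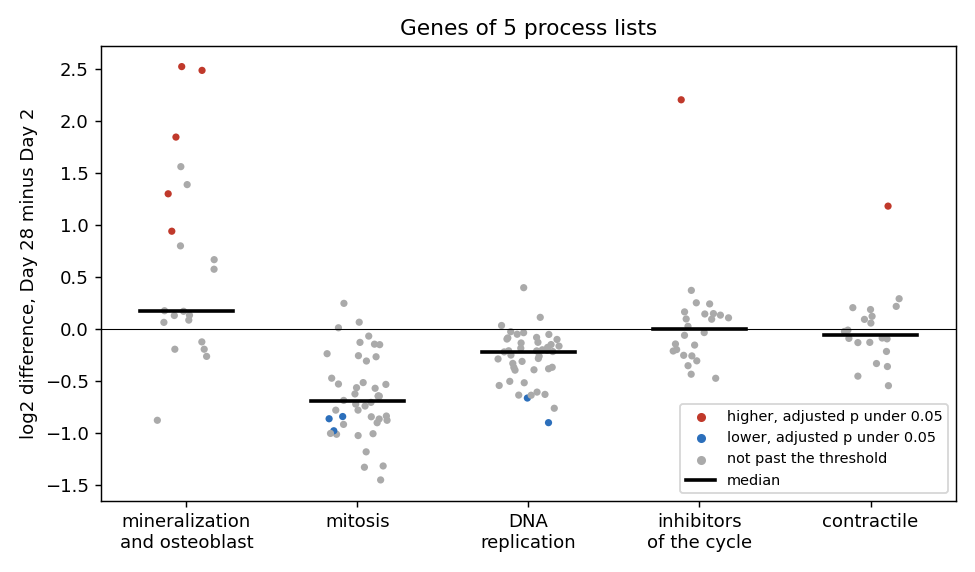
Log2 difference, Day 28 minus Day 2 (vertical axis), for each measured gene of 5 process lists, coloured by call, with the median as a bar. The mitosis genes centre on -0.70, with 3 of 44 called lower (6.82%, beside 2.29% over all genes). Without Day 10 replicate 3 it was 25, beside 3.82% over all genes. The mineralization list centres on 0.17 and reaches 2.52, with 5 of 21 called higher (23.8%, beside 4.53% over all genes).

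Of 44 genes of mitosis measured, 41 had a negative log2 difference, with a median of -0.70, and how many passed turned on 1 Day 10 array. With all 12 arrays 3 (6.82%) fell, beside 2.29% over all genes, and without Day 10 replicate 3 it was 25, beside 3.82%. The median over the list was -0.82, -0.87 and -2.16 on the Day 10 arrays, so replicate 3 lay far below the others for these genes. With the Day 2 and Day 28 arrays alone 26 of the 44 genes fell. The count over the whole comparison there is of rows, not genes, with 664 of 17504 lower. Cks1b had 0.07, 0.27 and -0.09 on Day 2 and -0.78, -0.80 and -0.77 on Day 28 (log2 difference -0.87, SE 0.16, adjusted p = 0.00587), and its window is printed above. Cdc25c, the phosphatase that starts mitosis, had -0.45, 0.12 and -0.06 and -1.07, -1.16 and -1.10 (log2 difference -0.98, SE 0.18, adjusted p = 0.00483). In both, every Day 28 array lay below every Day 2 array. Kif2c, a kinesin that takes microtubules apart, fell by 0.84 (adjusted p = 0.0465), a call lost without Day 28 replicate 2 (0.167). Mki67, a marker of cycling cells, had -1.37, -1.29 and -0.94 and -2.16, -2.40 and -2.12 (log2 difference -1.03, SE 0.32, adjusted p = 0.0816). Stmn1, a microtubule destabilizer, had -1.45 (adjusted p = 0.0848) and Top2a, the topoisomerase of dividing cells, -0.73 (SE 0.44, adjusted p = 0.435). The Day 10 arrays of Mki67 were -2.15, -2.05 and -3.49 and those of Top2a -1.50, -1.50 and -3.71. Without Day 10 replicate 3 the adjusted p was 0.00427 for Mki67, 0.000464 for Stmn1 and 0.0307 for Top2a in limma, all lower on Day 28. On the same scale, the median over the list was -0.48, -0.23 and -0.22 on the Day 2 arrays and -0.96, -0.97 and -1.03 on the Day 28 arrays.

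For DNA replication, 41 of 44 genes were likewise below 0, with a median of -0.22. Of the 44, 2 (4.55%) fell, beside 2.29% over all genes, and 4 without Day 10 replicate 3, beside 3.82%. With the Day 2 and Day 28 arrays alone 10 of the 44 genes fell, where the whole comparison, counted in rows and not genes, had 664 of 17504 lower. Orc6, of the origin recognition complex, had -0.26, -0.02 and 0.03 on Day 2 and -1.00, -0.96 and -1.02 on Day 28 (log2 difference -0.90, SE 0.14, adjusted p = 0.002). Dut, which clears dUTP, fell by 0.67 (adjusted p = 0.0447), with calls lost under quantile normalization (0.0573) and without Day 28 replicate 2 (0.175). The replication clamp Pcna had a log2 difference of -0.09 and the helicase chains Mcm2 and Mcm7 of -0.39 and -0.03, none past the threshold. Of 24 inhibitors of the cell cycle and genes of quiescence, 1 (4.17%) rose, Gas6, and none fell, with a median of -0.01, a share near the 4.53% over all genes. The inhibitors Cdkn1a (-0.48), Cdkn1b (0.09), Cdkn1c (-0.20) and Cdkn2a (-0.26) were not past the threshold. Of 20 contractile genes, 1 (5%) rose, likewise near that share: Tagln, an actin-binding protein, by 1.18 (adjusted p = 0.0196), a call lost without Day 2 replicate 2 (0.0949).

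The label of osteoblast could be set beside 8 measured markers. All 8 had positive log2 differences, with a median of 1.09, and 2 rose (Pth1r and Dmp1). The smallest differences, of Phex (0.08) and Col1a1 (0.17), were far from the threshold. The median mean level was 0.81 on Day 2 and 2.51 on Day 28, taken for each day separately and so not from the same genes throughout. Over all genes 4.53% rose and 2.29% fell. Without Day 10 replicate 3, 5 of the 8 rose, beside 5.83% rising and 3.82% falling over all genes. Of fibroblast markers, 1 of 8 rose (Pdgfra), and without that array 4 rose and 1 fell. None of 6 adipocyte, 7 skeletal muscle, 6 endothelial or 6 epithelial markers passed. With so few markers, no call or 1 call does not set a type apart from the shares over all genes. Of 8 chondrocyte markers 1 rose, Cnmd (1.63), while Acan (0.17), Sox9 (0.21) and Col2a1 (-0.83) did not pass, although Col2a1 fell without Day 10 replicate 3 (adjusted p = 0.0225). Of 5 macrophage and osteoclast markers 1 rose, Ctsk, while Ptprc, Adgre1, Itgam and Acp5 did not pass and lay below the reference on both days, with Day 28 means of -3.38, -0.51, -0.14 and -0.78. These are levels against a reference RNA that holds other cell types. In such cultures a larger share of cells of a type and more RNA per cell cannot be told apart.

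The Day 5 and Day 10 arrays show when the differences were reached, as a description that shares the Day 2 and Day 28 arrays with the comparison. Over the 580 genes that rose, the median share of the Day 28 difference reached was 24.1% by Day 5 and 57.8% by Day 10. Over the 293 genes that fell it was 29.5% and 61.4%. The Day 10 mean lay between the Day 2 and Day 28 means for 504 and 239 of them, and all 4 means ran in day order for 357 and 149. Secreted proteins that rose had reached 17.6% by Day 5 and 60.2% by Day 10, and transcription factors that rose 32% and 58.6%.

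Single genes took different courses to Day 28. F13a1 had means of 1.00 ± 0.44 on Day 5 and 4.71 ± 1.11 on Day 10 (SD, n = 3), whereas Dio2 was still at 0.72 ± 1.09 on Day 10. Fbln7 had -1.04 ± 0.11 on Day 10, close to its Day 2 mean of -1.14 ± 0.37, and reached its high level on the Day 28 arrays. Zfp423 stood at 2.44 ± 0.09 on Day 5 and 2.45 ± 0.22 on Day 28, so the Day 5 mean was already at the Day 28 level. Among the falls, Cebpd was at -0.21 ± 0.25 on Day 5, below its Day 28 mean of 0.03 ± 0.04, while Cldn1 was at 2.72 ± 0.26 on Day 10, above its Day 2 mean of 2.10 ± 0.44. Day 10 replicate 3 stood apart in several of the genes that fell: Asns was -2.55, -2.38 and -0.54 on the Day 10 arrays and Chac1 -2.38, -1.81 and 0.69, in each case with replicate 3 near the Day 2 values. The Day 10 means of such genes rest on that array.

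**Figure D5:**
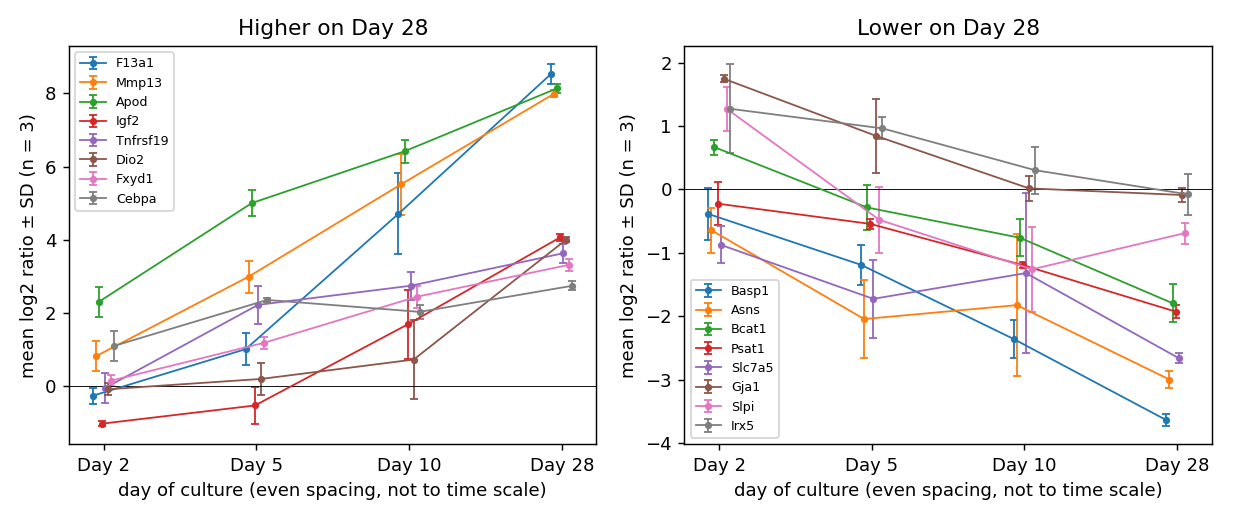
Mean log2 ratio of cells to reference with SD over 3 arrays (vertical axis) on Days 2, 5, 10 and 28, evenly spaced, for 8 genes higher on Day 28 (left) and 8 lower (right). F13a1 climbs at each step, Dio2 mostly between Day 10 at 0.72 and Day 28 at 4.00, and Asns has its widest error bar on Day 10.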

How the data were processed

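Per the labels, RNA extracted with Trizol was labelled and hybridized to slides printed with a mouse oligonucleotide set, with the reference RNA in Cy5 on every array and no exchange of dyes. The authors deposited 1 log ratio per spot and array, read here as log2. Per the submitters' processing notes the tool was R version 2.13.0. Not given in the sources used here are the log base, the direction of the ratio, and how background and dyes were corrected. Column medians ran from -0.00577 to 0.01324, values from -8.0424 to 8.7826, and no value was missing. No spot intensities were used, so a large ratio of a weak spot could not be told from that of a bright one, and the number of arrays limits the precision.

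Rows were named from the platform annotation, with symbols updated through a RefSeq table of GRCm38.p6 used for names only. Of 17664 rows, 14010 had 1 gene, 13 several and 3641 none, and 13908 matched the table. Promoter windows came from the RefSeq promoter table of the same build. For counts of genes, the lowest-numbered probe stood for its gene. Of 99 genes with several probes and at least 1 called, 25 had probes of unlike sign, 1 was called both ways, and 13 had all probes called the same way.

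Each array was centred on its median. With lmFit and eBayes, limma 3.58.1 (R 4.3.3) fitted a mean per day to all 12 arrays, with 8 residual and 5.23 prior degrees of freedom, and p-values were adjusted by Benjamini-Hochberg over 17504 rows at 0.05. Differences are Day 28 minus Day 2 with the SE of the fit, and "rose" and "fell" mean past that threshold. The model was tried on simulated data with independent normal noise in each row and 200 planted changes. Of log2 changes of 1, 80% were recovered, and of changes of 2, 97%, with 5 false calls. No simulated array stood apart as Day 10 replicate 3 did, so the trial does not cover that case. Same-numbered Day 2 and Day 28 arrays had deviations that correlated at -0.04, 0.04 and -0.07, so the numbers were not used as pairs.

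The 5 classes and 43 families were assigned by symbol patterns, first match first, so secreted proteases count with secreted proteins, F13a1 and Selenop with enzymes, and Tnfrsf11b with receptors, and a few are misplaced, such as Rab3il1 and Zbtb11os1. Named were the 8 largest rises and falls of each class, the 15 largest rises and falls overall and every called member of the process lists, 100 genes in all. A further 107 genes were added after their values were seen, to give 10 families in full, along with a few single genes. Members, lists and classes were chosen with earlier results of these data known. Alternatives were quantile normalization, no centring, equal spread, the 6 arrays alone, leaving out arrays, a replicate block, array weights, robust eBayes, rows with 1 gene, averaged probes and stricter thresholds.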

Additional observations from a re-analysis of the deposited data

How the results depend on the processing

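Of the 873 genes past the threshold, 402 kept their call whichever of the 12 arrays was left out and 563 kept it under all 10 refits with another setting. Among the 100 genes named by rule these were 76 and 85. No gene of the 100 changed sign. Of the 107 further family members named, 60 kept the call without each array, 19 lost it under quantile normalization and 12 with the replicate block, and 2 of the 19 changed sign, Sfrp2 to -0.0897 and Enpep to -0.162, for which the cause was not tested. Quantile normalization kept 707 of the 873 calls and gave 1004 rows, 559 higher and 445 lower.

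Counts of rows are given as called, higher and lower. With the 6 arrays alone they were 1549, 885 and 664, with 77 transcription factors and 280 enzymes. Without Day 5 replicate 2 and Day 10 replicate 3 they were 1704, 960 and 744, with 78 and 309. With array weights they were 1702, 950 and 752, with 76 and 305. An adjusted p of 0.01 left 472, 349 and 123, with 17 transcription factors, 27 receptors, 24 transporters and 90 enzymes. A log2 difference of at least 1 left 385, 307 and 78, with 14, 25, 22 and 80. These follow from the arrays or thresholds used.

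Leaving out 1 array gave 529 (without Day 28 replicate 2) to 1431 (without Day 10 replicate 3) rows called, 375 to 842 higher and 154 to 589 lower. By class it gave 77 to 131 secreted proteins, 27 to 55 receptors, 27 to 64 transporters, 99 to 262 enzymes and 18 to 68 transcription factors. The count of rows also dropped without Day 2 replicate 2 (576), Day 2 replicate 3 (591), Day 28 replicate 1 (600) or Day 28 replicate 3 (547). With the replicate number as a block, 799 rows passed, 534 higher and 265 lower, and 90 of the 100 named genes kept their call. The labels do not say whether the numbers pair arrays across days. The 3 arrays per day and unknown spot brightness limit what small differences can show.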

Other observations

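Glycan enzymes, oxidoreductases and protein kinases are given here with all their called members, families chosen after their values were seen. Of 163 enzymes of glycans, 14 (8.59%) rose and 7 (4.29%) fell, beside 4.53% and 2.29% over all genes. Among the rises were lysosomal enzymes that take glycans apart, which were not counted as a set: Hexa (log2 difference 1.44), Naglu (1.44), Neu1 (1.23), Gaa (1.23), Fuca1 (0.86) and Man2b2 (0.80). Hexa had 0.35, 0.26 and 0.05 on Day 2 and 1.54, 1.67 and 1.78 on Day 28, with no overlap. The others that rose were the sulfotransferases Chst15 (1.45), Chst7 (1.05) and Chst2 (1.00), with Hyal6 (1.78), St6galnac4 (1.27), B3gnt2 (0.80), B4galnt1 (0.56) and Chpf2 (0.52). Chst1 (-2.00), Cemip (-1.40), the hyaluronan synthase Has2 (-1.02), Neu3 (-0.83), Dpagt1 (-0.82), St3gal5 (-0.63) and Ugdh (-0.63) fell. Ugdh makes the uronic acid precursor that hyaluronan synthases use. The second probe of Fuca1 gave 0.08 and that of Cemip -0.56, neither past the threshold.

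Of 271 oxidoreductases, 16 (5.9%) rose and 12 (4.43%) fell, beside 4.53% and 2.29% over all genes. Besides Dio2, Hsd11b1 and Adh1 the rises were Steap3 (2.20), Fmo1 (1.58), Dhrs3 (1.43), Adh7 (1.24), Cyp7b1 (1.16), Aldh3b1 (1.04), Cbr3 (0.96), Akr1c14 (0.86), Smox (0.86), Cyp4v3 (0.76), Vkorc1 (0.63), Akr1a1 (0.59) and Rdh14 (0.51). Of the 12 that fell, Sqle (-0.73), Nsdhl (-0.82), Dhcr7 (-1.06) and Msmo1 (-1.07) act in cholesterol synthesis, a pathway whose measured genes were not counted as a set. Msmo1 had 1.14, 1.14 and 1.20 on Day 2 and 0.12, 0.17 and -0.02 on Day 28. The other falls were Steap1 (-1.46), Cyp1b1 (-1.44), Ldhb (-1.24), Steap2 (-1.12), Alox5ap (-1.00), which is an accessory protein, Rdh11 (-0.99), Acadm (-0.63) and Kdm1a (-0.63). Steap3 and Steap1, related metalloreductase genes, moved in opposite directions.

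Of 250 protein kinases, 8 rose and 3 fell, or 3.2% and 1.2%, both under the shares of all genes. Mylk, which phosphorylates myosin light chain, rose by 2.54, with 0.89, 1.21 and 1.20 on Day 2 and 3.62, 3.70 and 3.59 on Day 28. The other rises were Mast4 (2.26), Dapk2 (2.06), Stk17b (1.78), Plk2 (1.46), Pink1 (0.94), Akt2 (0.57) and Stk19 (0.57), and Prkd3 (-0.82), Prkci (-0.66) and Pak4 (-0.65) fell. The second probe of Stk17b also rose (0.71), while those of Akt2 (0.73) and Prkd3 (-0.21) were not past the threshold.

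Some of these calls lay close to the threshold. Of the 12 fits that leave out 1 array, Akt2 kept its call in 2, Chpf2 in 3, and Chst2 and Cyp4v3 in 4. Rdh14, Stk19 and Alox5ap kept the call in 6, and Cyp7b1, Akr1c14 and Man2b2 in 7. B4galnt1, Smox, Rdh11 and Pak4 kept the call in 8, and Neu3, St3gal5, Ugdh, Fmo1, Akr1a1 and Acadm in 9. Cbr3 kept the call in 10, and Chst7, Sqle and Kdm1a in 11. Chst2, Chpf2, Akr1c14, Akt2, B4galnt1 and Rdh14 also lost it with the replicate number as a block.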
